A study of Arabidopsis thaliana with 9 samples.

Results

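The comparison described here is that of cop1-4 with wild type Arabidopsis thaliana seedlings in darkness, taken across all probe sets of an Affymetrix array. Its members were chosen by the array titles: 3 arrays of etiolated cop1-4 and 3 of etiolated Col-0 wild type, 6 of the 9 arrays of the series. The cop1-4 group was whole seedlings of the cop1-4 genotype in the Columbia (Col-0) ecotype, and the wild type group was whole Col-0 seedlings. A further genotype, cop1-4 BBX22-GFPox (3 arrays), is described only by the levels of some genes that fell. Its arrays also entered the estimate of the spread between arrays, the filter on low signals, the added constant and the check of the replicate numbers. Seedlings of every genotype had spent 4 days without light on Murashige and Skoog medium that held sucrose, so the sugar supply was shared by both groups. The question was how the transcriptome of a seedling that never saw light differs between cop1-4 and wild type.

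COP1 is an E3 ubiquitin ligase that, in darkness, marks transcription factors of light-driven development for degradation. Loss of COP1 function is known to give dark-grown seedlings with short hypocotyls, opened cotyledons and expression of genes that normally need light. A dark-grown wild type seedling instead builds etioplasts, elongates its hypocotyl and lives on seed reserves. The allele cop1-4 is viable and known as a partial loss of function, and the comparison rests on this 1 allele. No transcript of COP1, BBX22 or HY5 is described, and the genotypes therefore had no check of that kind. Whole seedlings were measured, in which fewer cells of a type and less RNA per cell cannot be told apart.

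The values were MAS5 signals, the linear brightness summary of a probe set. Array medians were 147, 171 and 184 in cop1-4, against 172, 189 and 185 in wild type. Replicate 1 stood apart from the others in both genotypes. On the log2 scale it correlated with replicates 2 and 3 at 0.895 and 0.893 in cop1-4, where those 2 correlated at 0.987. In wild type it correlated with them at 0.953 and 0.950, where those 2 correlated at 0.982. Differences were therefore taken within replicate numbers, as log2(signal + 24.5), and values of replicate 1 and of the other replicates are given apart. Below about the added 24.5 a signal hardly moves this scale, so changes of dim genes are understated. Of 85 cell type markers in a list, 9 had a named probe set. OLEO3, a seed oil body protein, FDH of the epidermis, SWEET11 of the phloem and the root hair expansin EXPA18 lay above the added 24.5 on every wild type array. So did YAB3 of the leaf and meristem markers and SPCH and FMA (FAMA) of the stomatal lineage. EXPA7 of root hairs did so on all but replicate 1. MUTE of the stomatal lineage was under 24.5 on every wild type array (7.6, 2.1 and 3.5) and did not pass the filter on low signals. No endodermis or xylem marker was named in the annotation used here.

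A large share of the transcriptome differed between the genotypes. Of 15922 probe sets above the filter on low signals, 3173 (19.9%) rose in cop1-4 and 3923 (24.6%) fell, in limma's test with the replicate number as a block and a Benjamini-Hochberg adjusted p under 0.05. "Rose" and "fell" are used below for calls by this test. Without the block 4100 probe sets were called (25.8%), 1795 raised (11.3%) and 2305 lowered (14.5%), all of them among the calls of the blocked fit. The 3 cop1-4 arrays all lay above the 3 wild type arrays for 3064 probe sets (19.2%) and all below for 4092 (25.7%). The change had the same sign in all 3 replicate numbers for 10360 probe sets (65.1%).

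Changes were mostly moderate. The median log2 change was 1.17 among probe sets that rose and −1.03 among those that fell, against −0.11 over all tested. At least 2-fold differences were called for 2007 that rose (12.6%) and 2068 that fell (13%). At least 8-fold differences were called for 56 that rose and 90 that fell, and at least 32-fold ones for 4 and 11. The balance of directions depended on scaling: with arrays scaled to a common median, which moved the median change by 0.11 log2 units, 3711 probe sets rose and 3272 fell. Changes in replicates 2 and 3 correlated at 0.924 across probe sets, and those in replicate 1 with them at 0.624 and 0.615. Probe sets are not independent of each other, and the pairs share no array. In replicates 2 and 3 alone, 4577 (28.7%) rose and 5355 (33.6%) fell.

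**Figure D1:**
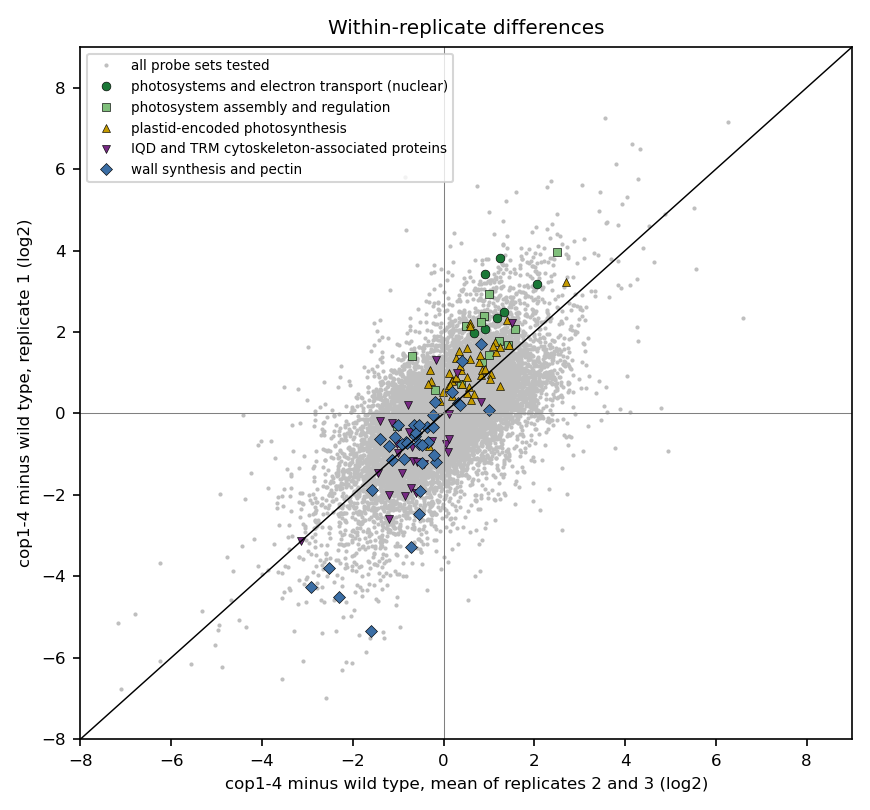
Difference of cop1-4 minus wild type in replicate 1 (vertical, log2) against the mean difference in replicates 2 and 3 (horizontal, log2) for each probe set tested, with members of 5 gene lists coloured. The nuclear photosystem genes lie above the diagonal (median 2.48 in replicate 1 and 1.17 in the others), whereas the IQD and TRM genes have medians of −0.83 and −0.71.

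The largest repeatable rise among probe sets with 1 named gene was that of THI2.2, a thionin, a small cysteine-rich defence peptide. Its signals were 4492, 2487 and 2396 in cop1-4, against 7.4, 7.8 and 7.4 in wild type (log2 change 6.56, SE 0.47, limma adjusted p = 0.000107). All 3 wild type values were under the added 24.5, whereas all 3 cop1-4 arrays were bright. MSRB6, a methionine sulfoxide reductase that repairs oxidised protein, measured 956, 1361 and 1365 in cop1-4, against 86.1, 69.1 and 45.4 in wild type (log2 change 3.78, SE 0.41, limma adjusted p = 0.000427). MAP1C, a methionine aminopeptidase, measured 1559, 1616 and 1479.8 in cop1-4, against 191, 260.3 and 239.8 in wild type (log2 change 2.64, SE 0.18, limma adjusted p = 8.14e-05). For both genes every cop1-4 array lay above every wild type array. BGLU33 and CYP71B26, of the beta-glucosidase and cytochrome P450 families, rose by 2.36 and 2.59 on the log2 scale. RING1, an E3 ligase of the RING type linked to cell death responses, measured 452, 416 and 599 in cop1-4, against 55.3, 86.7 and 51.1 in wild type (log2 change 2.54, SE 0.48, limma adjusted p = 0.00384).

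Several of the genes with the strongest rise carry only a locus name in the annotation used here. AT2G25510 measured 3153, 3824 and 6265 in cop1-4, against 72.4, 71.2 and 95.7 in wild type (log2 change 5.36, SE 0.40, limma adjusted p = 0.000133). AT4G34950 measured 1097, 1733 and 1494 in cop1-4, against 42.5, 54.6 and 50.8 in wild type (log2 change 4.29, SE 0.21, limma adjusted p = 5.22e-05). The arrays of the 2 genotypes did not overlap for either locus. AT3G57020 (4.10), AT1G51110 (3.94), AT2G29360 (3.94), AT4G28780 (3.81) and AT1G22690 (3.73) rose by the log2 amounts in brackets, with adjusted p between 7.26e-05 and 0.000245. AT5G04380 and AT1G70820 were under the added 24.5 in every wild type array, and replicate 1 of cop1-4 was far above the other cop1-4 arrays. AT5G04380 measured 2164, 522 and 506 in cop1-4, against 6.8, 8.8 and 19.7 in wild type. AT1G70820 measured 1362, 330.1 and 299.9 in cop1-4, against 7.5, 5.6 and 7.6 in wild type. The 2 probe sets without a named gene that rose most by the same ranking, 251309_at and 245448_at, changed by 4.88 and 4.56 log2 units.

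Some genes that were bright in dark wild type were nearly lost in cop1-4. The most repeatable was AT5G45500, with 9.3, 8.4 and 8.4 in cop1-4, against 2270.4, 2452 and 2466 in wild type (log2 change −6.19, SE 0.15, limma adjusted p = 1.15e-06). ZW9 measured 51.3, 51.1 and 52.7 in cop1-4, against 5394, 3476 and 3726 in wild type (log2 change −5.77, SE 0.19, limma adjusted p = 5.71e-06). Both had replicate values that hardly differed in cop1-4 while wild type was bright. OCT1, an organic cation and carnitine transporter, measured 14.9, 6.5 and 3.1 in cop1-4, against 1538, 823 and 961 in wild type (log2 change −5.08, SE 0.27, limma adjusted p = 5.38e-05), all 3 cop1-4 values being under the added 24.5. OLEO3, an oleosin that coats seed oil bodies, measured 45.6, 64.7 and 69.1 in cop1-4, against 2322, 2146 and 1959.6 in wild type (log2 change −4.69, SE 0.27, limma adjusted p = 5.79e-05). The other tested gene of the seed reserve list, PAP85, a vicilin-like storage protein, measured 1574, 174 and 229 in cop1-4, against 919, 60.4 and 12 in wild type, a change in the other direction (log2 change 1.59, SE 0.58, limma adjusted p = 0.0536) that was called with arrays scaled to a common median and in replicates 2 and 3 alone. Replicate 1 was its brightest array in both genotypes. ATPMEPCRD, named as a pectin methylesterase precursor, fell by 3.97 log2 units, with 449, 1456 and 1388 in cop1-4, against 19069, 12273 and 16170.1 in wild type.

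AT4G07820 (−6.50) and AT5G44440 (−6.17) fell by like log2 amounts, with less even replicates. AT4G07820 measured 46.3, 58.5 and 38.6 in cop1-4, against 2484, 9430 and 11592 in wild type, replicate 1 of wild type being the lowest of its genotype. AT4G22490, AT2G34020, AT2G01090 and AT2G16005 fell, with log2 changes of −4.35, −3.86, −3.71 and −3.68. The probe sets 248197_at and 264146_at, without a named gene, changed by −6.99 and −5.02 log2 units. Not all of these falls were shared by the other genotype with cop1-4. In cop1-4 BBX22-GFPox AT5G45500 measured 727 to 821, ZW9 1545 to 1743, AT4G07820 549 to 795 and AT2G01090 620 to 956.5, far above cop1-4. OCT1, OLEO3, ATPMEPCRD, AT5G44440, AT4G22490, AT2G34020 and AT2G16005 stayed far below wild type there. The cause was not tested.

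**Figure D2:**
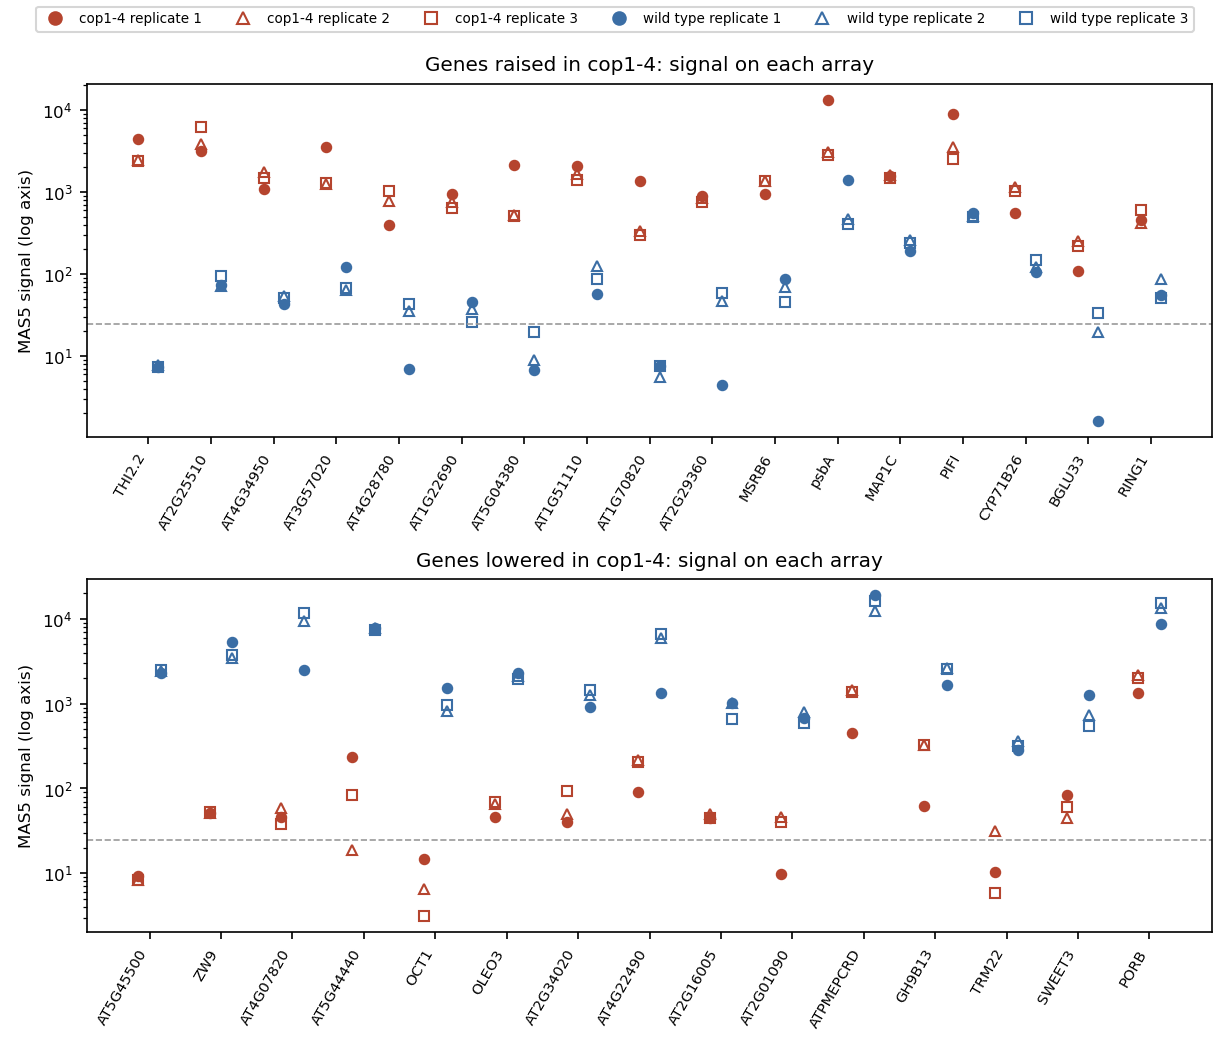
MAS5 signal (vertical, log axis) on each of the 3 cop1-4 arrays (red) and 3 wild type arrays (blue) for the genes with the largest repeatable rise (top) and fall (bottom). The dashed line is the added 24.5. THI2.2 lies at 2396 to 4492 in cop1-4 and 7.4 to 7.8 in wild type, and AT5G45500 at 8.4 to 9.3 in cop1-4 and 2270.4 to 2466 in wild type.

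Gene lists by function are described next by their counts, beside those of all 8602 genes, each represented by 1 probe set. Of these genes 1802 (20.9%) rose and 2013 (23.4%) fell, with a median of −0.07. Without the block 1033 of the 8602 rose and 1188 fell. No list was tested as a set.

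Genes of the photosynthetic apparatus are given by list. Nuclear photosystem and electron transport genes rose in 7 of 7 cases, with a median log2 change of 1.71, of 2.48 in replicate 1 and of 1.17 in the other replicates. All 7 also rose without the block and in replicates 2 and 3 alone. PSAN, a small subunit on the lumen side of photosystem I, measured 23549, 10508 and 7676 in cop1-4, against 2561, 2138 and 2115 in wild type (log2 change 2.44, SE 0.27, limma adjusted p = 0.000453). PSBY of photosystem II measured 15189.7, 8883 and 7811 in cop1-4, against 2705, 3581 and 3042 in wild type (log2 change 1.71, SE 0.26, limma adjusted p = 0.00161). The wild type levels show that these transcripts were already present in darkness. NdhN and NdhL, subunits of the chloroplast NDH complex, changed by 2.10 and 1.75 log2 units, PSBW of photosystem II by 1.56, ATPC1 of the ATP synthase by 1.30 and PSAE-1 of photosystem I by 1.11.

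Assembly and regulatory factors of the photosystems rose in 11 of 14 cases and fell in 1, with a median of 1.22 (1.73 in replicate 1, 0.87 in the others). PIFI, which acts in chlororespiration, measured 8916, 3509.8 and 2526 in cop1-4, against 549.9, 504 and 501 in wild type (log2 change 2.99, SE 0.32, limma adjusted p = 0.000426), each cop1-4 array being above each wild type array. LPA1 and LPA2, assembly factors of photosystem II, rose by 1.50 and 1.74 log2 units. CaS, a thylakoid calcium sensor, rose by 1.64 log2 units, PSB27, a repair factor of photosystem II, by 1.40, and TROL, which anchors ferredoxin-NADP reductase, by 1.30. The paralogues LIL3:1 and LIL3:2, light-harvesting-like proteins that stabilise enzymes of chlorophyll synthesis, moved in opposite directions, by 1.41 and −0.79 log2 units. LIL3:2 measured 4406, 3677 and 2658 in cop1-4, against 5462, 6633 and 6212 in wild type, and its call was lost without any of 4 single arrays, with an adjusted p of at most 0.0827, reached without replicate 3 of cop1-4.

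The 3 antenna genes with a name all encode CP29, a minor antenna of photosystem II, and they split. LHCB4.3 measured 672, 1510.5 and 1128 in cop1-4, against 283, 289.6 and 244 in wild type (log2 change 1.86, SE 0.24, limma adjusted p = 0.000861). LHCB4.1 rose by 0.97 log2 units, a call lost without the block over all arrays but made in replicates 2 and 3 alone. LHCB4.2 fell, with 5317, 1532 and 1402 in cop1-4, against 7268, 6632 and 5542 in wild type (log2 change −1.50, SE 0.34, limma adjusted p = 0.00804), and the drop was larger in replicates 2 and 3 than in replicate 1. Carbon fixation genes rose in 2 of 3 cases. RCA, the activase of Rubisco, measured 33415, 22626 and 21261 in cop1-4, against 4882, 9092 and 7671 in wild type (log2 change 1.85, SE 0.29, limma adjusted p = 0.00172). SBPASE, a Calvin cycle phosphatase, measured 13986, 6471 and 6019 in cop1-4, against 1468, 3228 and 2530 in wild type (log2 change 1.82, SE 0.40, limma adjusted p = 0.00763). PRK was not called at 0.69. HPR, the hydroxypyruvate reductase of photorespiration, reached 22701, 3594 and 3971 in cop1-4, against 2146, 2234 and 1754 in wild type (log2 change 1.75, limma adjusted p = 0.0131 with the block and 0.09 without it). The difference of HPR was widest in replicate 1.

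Pigment synthesis changed in both directions. Of 9 tested genes of chlorophyll and haem synthesis, 5 rose and 1 fell with the block, and 3 rose and 1 fell without it. CHLI2, a subunit of magnesium chelatase, measured 1400.4, 1429.7 and 1239 in cop1-4, against 282, 533 and 627 in wild type (log2 change 1.52, SE 0.26, limma adjusted p = 0.00233). HEME1, HEME2, GSA1 and HEMB1, enzymes of the shared tetrapyrrole steps, rose by 1.24, 1.14, 0.91 and 0.82 log2 units. The calls of HEME2 and GSA1 were lost without the block. PORB, the light-dependent protochlorophyllide reductase that is held ready in dark-grown seedlings, fell, with 1329, 2157 and 2029 in cop1-4, against 8669, 13371 and 15508 in wild type (log2 change −2.74, SE 0.33, limma adjusted p = 0.000626). PORB had the widest change of the 9 tested genes, opposite in direction to the 5 that rose. CHLM was not called at 0.92. Of the 2 carotenoid genes with a name, Z-ISO, the zeta-carotene isomerase, rose by 1.26 log2 units and LYC, a lycopene cyclase, by 0.56, the call of LYC being lost without the block.

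Nuclear genes that maintain plastids are given in 2 lists. In the list of plastid RNA editing and splicing 8 of 15 rose and none fell, with a median of 0.92. One of the 8, PPR596 (1.96), is known for editing in mitochondria, and without it 7 of 14 rose, with a median of 0.64. The editing factors CRR22 and OTP81 rose most. CRR22 measured 256, 167 and 136 in cop1-4, against 15.7, 11.8 and 27.7 in wild type (log2 change 2.27, SE 0.27, limma adjusted p = 0.000577). OTP81 measured 100.4, 424 and 390.4 in cop1-4, against 27.3, 33.7 and 53.4 in wild type (log2 change 2.21, SE 0.33, limma adjusted p = 0.00142). Of the 8, CRR41 (1.87) and CRR42 (1.49) are known for assembly of the NDH complex, and ATAB2 (0.92) for translation of photosystem I subunits. In the list of plastid import, folding and division 9 of 13 rose and none fell, with a median of 1.17. FTSZ2-1 and FTSZ2-2, tubulin-like proteins of the chloroplast division ring, rose by 1.55 and 1.73 log2 units. FTSZ2-1 measured 1295, 1177 and 1192 in cop1-4, against 389, 437 and 379.5 in wild type (log2 change 1.55, SE 0.15, limma adjusted p = 0.000322), with replicates close in both genotypes. The chaperonin subunits Cpn60beta2 and Cpn60beta4 rose by 1.63 and 1.47 log2 units, and the translocase parts SECE1 and SECA2 by 1.55 and 1.17. MRL7-L rose by 1.94 log2 units. FZL, Cpn60beta3 and the OEP16 members were not called.

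**Figure D3:**
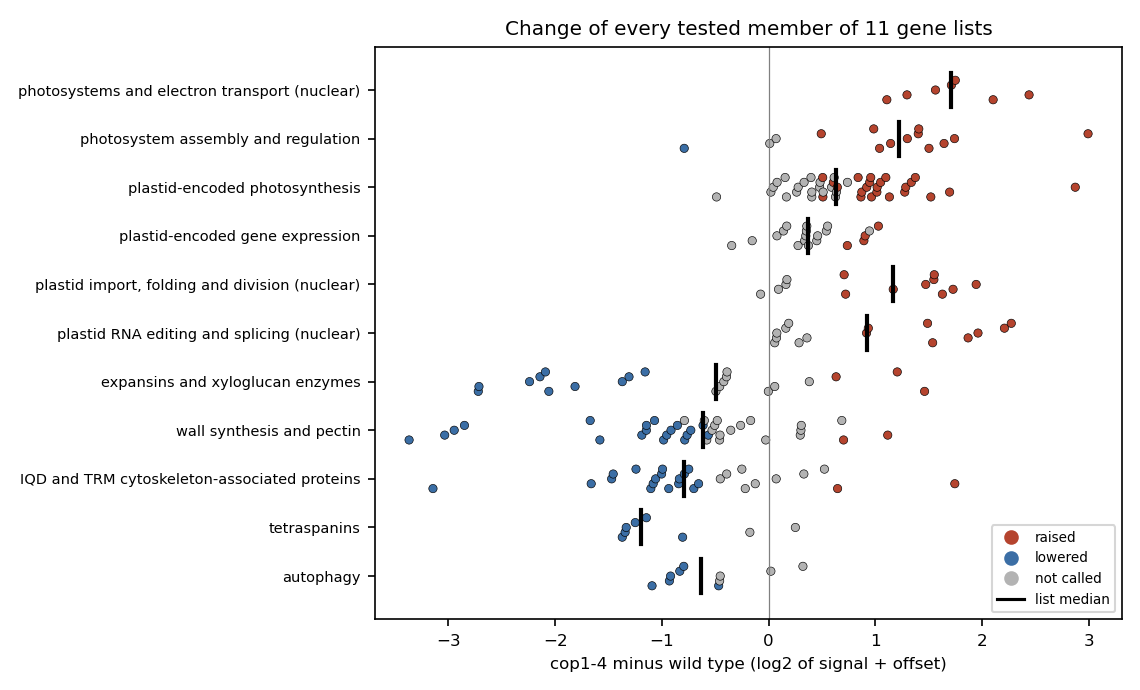
Log2 change of cop1-4 minus wild type (horizontal) for each tested member of 11 gene lists. Points are red where the gene rose, blue where it fell and grey where it was not called, and the black bar is the list median, which is 1.71 for nuclear photosystem genes and −1.20 for tetraspanins.

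Transcripts of the plastid genome were measured for most of its genes with a name. Of 69 plastid-encoded genes tested, 31 (44.9%) rose and none fell. Among 43 that encode photosynthetic subunits, 23 rose, with a median of 0.63, and 42 had a positive change. Without the block 9 of the 43 rose, and in replicates 2 and 3 alone 25 rose and 1 fell. psbA, which encodes the D1 protein of the photosystem II core, measured 13355, 3108 and 2865 in cop1-4, against 1394, 474 and 411 in wild type (log2 change 2.87, SE 0.20, limma adjusted p = 9.25e-05). Replicate 1 was the brightest array of each genotype for psbA, and the genotypes did not overlap. ndhF measured 244, 177 and 194 in cop1-4, against 30.7, 46.6 and 64.1 in wild type (log2 change 1.70, SE 0.31, limma adjusted p = 0.00334), and psbZ, of photosystem II, measured 7767, 5339 and 6062 in cop1-4, against 2709, 2655 and 2425 in wild type (log2 change 1.28, SE 0.18, limma adjusted p = 0.00126). rbcL, the large subunit of Rubisco, had the one negative change, −0.49, and was not called.

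Of 20 plastid genes of transcription and translation 4 rose and none fell, a share close to the 20.9% raised among all genes, with a median of 0.37. rps2 of the ribosome rose by 0.89 log2 units and matK, a splicing factor, by 0.74, the call of matK being lost without the block. The RNA polymerase genes rpoA, rpoB, rpoC1 and rpoC2 were not called, at 0.55, 0.34, 0.08 and 0.45. In replicates 2 and 3 alone, 12 of the 20 rose. ccsA, which attaches haem to c-type cytochromes, measured 17205, 9123 and 9284 in cop1-4, against 5974, 3745 and 4441 in wild type (log2 change 1.29, SE 0.18, limma adjusted p = 0.00103). Of 12 genes of the mitochondrial genome 1 rose and 5 fell, with a median of −0.42. Without the block none rose and 2 fell. With arrays scaled to a common median 1 rose and 2 fell. nad5 of complex I measured 52.2, 40.8 and 75.7 in cop1-4, against 243, 101 and 163 in wild type (log2 change −1.21, SE 0.28, limma adjusted p = 0.00885), and cox1 and cox2 of complex IV changed by −0.61 and −1.02 log2 units. nad4L of complex I fell by 0.95 log2 units, a call lost without any of 3 single arrays. These mitochondrial signals were low, near the added 24.5 on some arrays.

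Redox genes that serve the chloroplast were among those that rose. In the list of antioxidants and glutathione 11 of 25 rose and 3 fell with the block, and 5 rose and 3 fell without it. NTRC, a plastid thioredoxin reductase, measured 1336, 2226 and 2094 in cop1-4, against 363, 448 and 535 in wild type (log2 change 2.00, SE 0.16, limma adjusted p = 0.00018). TRXF2, a thioredoxin that activates carbon fixation enzymes, rose by 1.35 log2 units, and TAPX, the thylakoid ascorbate peroxidase, by 1.10. VTC4, which acts in ascorbate synthesis, rose by 1.85 log2 units. The glutathione S-transferases divided: GSTU22 fell, with 68.8, 72.4 and 83.9 in cop1-4, against 312, 534 and 478 in wild type (log2 change −2.20, SE 0.18, limma adjusted p = 0.00018), and GSTU26 fell by 1.67 log2 units, while GSTU23, GSTU25 and GSTL3 rose by 1.06, 0.89 and 0.83. MSRB9 fell, with 140.4, 1429 and 1650.2 in cop1-4, against 5214, 6634 and 7867 in wild type (log2 change −3.14, SE 0.52, limma adjusted p = 0.0022), in contrast to its family member MSRB6.

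Genes of cell elongation and the wall held more members that fell than rose. In the list of expansins and xyloglucan enzymes 10 of 21 fell and 3 rose, with a median of −0.49. Without the block 7 fell and none rose. EXPA9, an expansin, proteins that loosen the wall during growth, measured 412, 462 and 581 in cop1-4, against 2789, 3577 and 3610.3 in wild type (log2 change −2.72, SE 0.17, limma adjusted p = 6.46e-05). EXPA4, EXPA8, EXPB1 and EXLA2 fell, with log2 changes of −2.09, −2.06, −2.14 and −1.81, and XTH18 and XTH19, which cut and rejoin xyloglucan, with −2.24 and −2.71. The 3 that rose were XTH26 (1.46) and the root hair expansins EXPA7 (1.21) and EXPA18 (0.63). EXPA7 measured 132, 298 and 331 in cop1-4, against 6.6, 206 and 179.5 in wild type, and EXPA18 measured 64.3, 750.3 and 574 in cop1-4, against 40.4, 403 and 374 in wild type. Both were dimmest in replicate 1 of each genotype, and both calls were lost without the block.

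In the list of wall synthesis and pectin 19 of 37 fell and 2 rose, with a median of −0.61. Without the block 8 fell and 1 rose. The members of the cellulase family GH9B13 and GH9C2 fell, with log2 changes of −3.37 and −2.85, and PME61, a pectin methylesterase, with −2.95. TBL38, of a family that acetylates wall polymers, measured 51.4, 172 and 239.8 in cop1-4, against 1702, 1071 and 1122 in wild type (log2 change −3.04, SE 0.46, limma adjusted p = 0.00155). GH9B13 measured 62.1, 325 and 326 in cop1-4, against 1653, 2665 and 2567 in wild type (log2 change −3.37, SE 0.33, limma adjusted p = 0.000299). CSLA03, of a mannan synthase family, rose by 1.12 log2 units. The xylan genes IRX15-L (−1.32), GUT1 (−0.68) and GUT2 (−0.66) fell, the call of GUT2 being lost without the block. They were set apart from the phenylpropanoid and lignin list after values were seen. Of the 2 genes left in it, HCT of monolignol synthesis fell by 1.13 log2 units and ALDH2C4 was not called, at −0.37.

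Genes of the cortical cytoskeleton are given in 2 lists. In the list of IQD and TRM proteins, which bind calmodulin and microtubules or recruit the machinery that orients them, 17 of 27 fell and 2 rose, with a median of −0.79. This median was −0.83 in replicate 1 and −0.71 in the others. TRM22 measured 10.3, 31.5 and 5.8 in cop1-4, against 282, 364 and 319 in wild type (log2 change −3.15, SE 0.23, limma adjusted p = 0.000121). iqd32 measured 529, 429 and 448 in cop1-4, against 1504, 1196 and 1288 in wild type (log2 change −1.46, SE 0.15, limma adjusted p = 0.000375). IQD22 and IQD19 fell, with log2 changes of −1.66 and −1.47, whereas IQD24 rose by 1.74 log2 units. Without the block 12 fell and 1 rose, and with arrays scaled to a common median 15 fell and 3 rose. Of 9 tubulin, actin and microtubule genes, 5 fell, with a median of −0.65, and 1 fell without the block. ATMAP65-6, a microtubule bundling protein, measured 708, 289 and 348 in cop1-4, against 1874, 1477 and 1342 in wild type (log2 change −1.84, SE 0.20, limma adjusted p = 0.00041). TUB1, a beta-tubulin, fell by 2.24 log2 units, a call lost without the block. With a common median 3 of these 9 fell. SIM, an inhibitor of cyclin-dependent kinases that promotes endoreduplication, fell, with 1268, 817 and 780 in cop1-4, against 4649, 2713 and 1974 in wild type (log2 change −1.62, SE 0.18, limma adjusted p = 0.000461). It was the 1 member of 7 cell cycle genes called in the fit with the block. In replicates 2 and 3 alone 4 of the 7 rose and 1 fell, beside 28.7% and 33.6% of all probe sets tested.

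**Figure D4:**
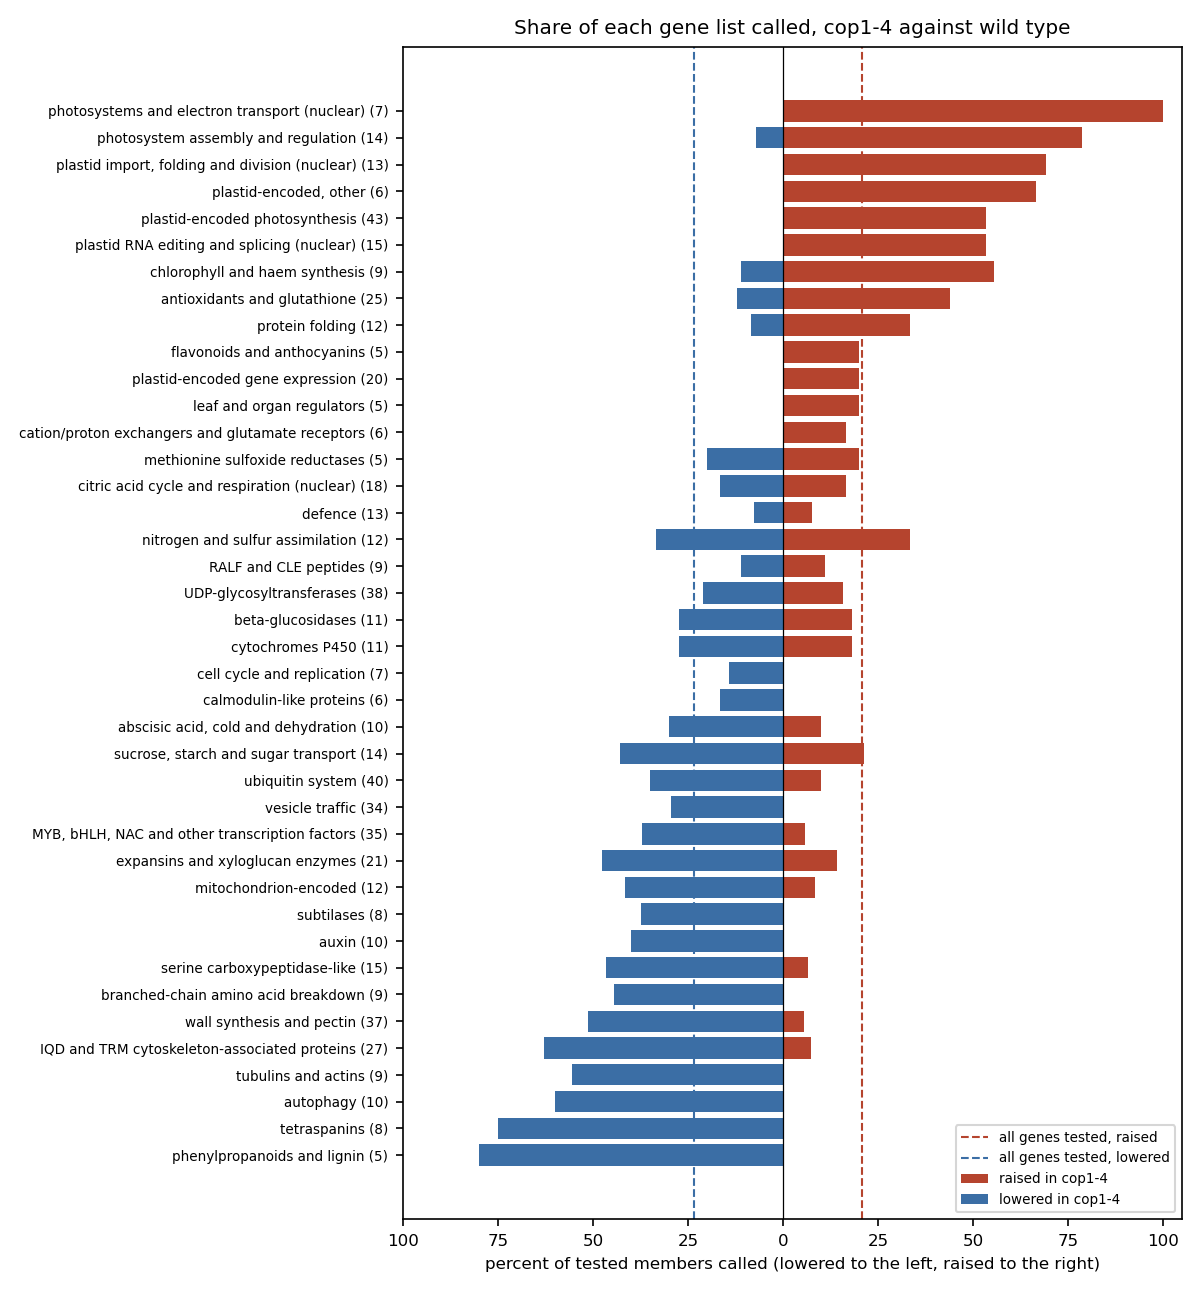
Percent of the tested members of each gene list that rose (red, to the right) or fell (blue, to the left) in cop1-4, with the number tested in brackets, for lists with at least 5 tested members. The dashed lines mark the shares among all 8602 genes, 20.9% raised and 23.4% lowered. The phenylpropanoid and lignin bar (4 of 5 fell) still includes the xylan genes IRX15-L, GUT1 and GUT2, which the text sets apart.

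Among hormone genes, most of those called fell. Of 10 auxin genes tested 4 fell and none rose, with and without the block, with a median of −0.67, of −2.01 in replicate 1 and −0.81 in the others. IAA20, a member of the Aux/IAA repressors, measured 68.9, 56.5 and 54.6 in cop1-4, against 406, 490.4 and 677 in wild type (log2 change −2.67, SE 0.35, limma adjusted p = 0.000841). WES1 and GH3.17, enzymes that conjugate auxin to amino acids, fell, with log2 changes of −2.55 and −1.74. WES1 measured 522, 509 and 504 in cop1-4, against 5651, 2147 and 2494 in wild type (log2 change −2.55, SE 0.27, limma adjusted p = 0.00043), its cop1-4 arrays being nearly equal. HAT2, a homeodomain factor induced by auxin and shade, fell by 1.41 log2 units. GID1B, a gibberellin receptor, fell, with 117, 165 and 210.2 in cop1-4, against 371, 416 and 382 in wild type (log2 change −1.16, SE 0.18, limma adjusted p = 0.00179), while GID1A and GID1C were not called, at −0.13 and −0.28. RR16, a cytokinin response regulator, was not called at 0.55, and its change was −0.079 without replicate 1. MYC3, a jasmonate transcription factor, fell by 1.24 log2 units.

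The light signalling genes with a name were few. FHL, a shuttle protein that brings phytochrome A into the nucleus, fell, with 150.1, 89.8 and 81 in cop1-4, against 355, 244 and 269 in wild type (log2 change −1.27, SE 0.22, limma adjusted p = 0.00278). HYH, a bZIP factor that promotes light responses, rose, with 254, 203 and 203 in cop1-4, against 71.4, 137 and 137 in wild type (log2 change 0.84, SE 0.26, limma adjusted p = 0.0293), a call lost without the block (adjusted p = 0.0724). CSN5B of the COP9 signalosome was not called at −0.93. UGT78D2, which adds glucose to flavonols and anthocyanins, measured 410.4, 768 and 973 in cop1-4, against 103, 244 and 283 in wild type (log2 change 1.68, SE 0.17, limma adjusted p = 0.000362). It was the 1 gene called among 5 flavonoid genes, and DFR, of anthocyanin synthesis, was not called at −0.18.

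Reserve, stress and transport genes gave mixed pictures. ICL, the isocitrate lyase that turns fatty acids of seed oil towards sugar, measured 8452, 838 and 963 in cop1-4, against 9459, 6013 and 7110.2 in wild type (log2 change −1.94, SE 0.47, limma adjusted p = 0.0115). Its replicate 1 differed little between the genotypes, the adjusted p was 0.11 without the block, and it reached 0.0632 without replicate 2 of cop1-4. SDP1, a lipase of seed oil, fell by 1.02 log2 units, also a call lost without the block. COR47, a dehydrin, measured 8928, 8396 and 8146 in cop1-4, against 18257, 14450 and 17797 in wild type (log2 change −0.98, SE 0.17, limma adjusted p = 0.00264), RD2, a gene induced by drying, fell by 1.02 log2 units, and COR27, a cold-regulated gene, rose by 2.09 with the block. ATHSP22.0, a small heat shock protein of the endoplasmic reticulum, measured 47.7, 47.9 and 43.9 in cop1-4, against 215, 208 and 209.9 in wild type (log2 change −1.73, SE 0.25, limma adjusted p = 0.00132). Of 13 defence genes 1 rose, THI2.2, and 1 fell, ZAP1, a WRKY factor (−0.70).

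Sugar transporters of the SWEET family moved apart. SWEET3 fell, with 83.3, 45 and 59.8 in cop1-4, against 1256, 738 and 538 in wild type (log2 change −3.25, SE 0.29, limma adjusted p = 0.00023). SWEET16, of the vacuole membrane, and SWEET11, of the phloem, fell, with log2 changes of −1.26 and −1.08, and SWEET1 rose by 1.34 log2 units. SWEET11 measured 6655, 2270 and 2413 in cop1-4, against 7390.5, 6692 and 7067 in wild type, so that its replicate 1 differed little. Over the whole list of sucrose, starch and sugar transport 3 of 14 rose and 6 fell. DPE1, a starch-degrading enzyme of the plastid, rose by 1.19 log2 units, a call lost without either of 2 single arrays. cwINV6, named as a cell wall invertase, fell by 1.04 log2 units. Of 12 genes of nitrogen and sulfur assimilation 4 rose and 4 fell, with 2 and 3 without the block. The members given by locus AT1G68570 and AT3G21670 rose by 2.60 and 1.24 log2 units, the call of AT3G21670 being lost without either of 2 single arrays. AT2G26690 fell by 2.04 log2 units. APS4, a sulfate-activating enzyme, and OASA2, of cysteine synthesis, fell, with log2 changes of −1.49 and −1.23. SDH2-2, an iron-sulfur subunit of succinate dehydrogenase, rose, with 1508, 3249.5 and 2789.9 in cop1-4, against 818, 1093 and 860.3 in wild type (log2 change 1.36, SE 0.24, limma adjusted p = 0.00261), while SDH2-1 was not called. Of 18 genes of the citric acid cycle and respiration 3 rose and 3 fell, NDB3, a mitochondrial NADH dehydrogenase, falling by 1.09 log2 units. The call of NDB3 was lost without any of 4 single arrays. Of 12 protein folding genes 4 rose and 1 fell, with 1 and 1 without the block. ATJ1, a mitochondrial J-domain protein, rose by 1.48 log2 units. Hop3, a co-chaperone, fell by 0.95 log2 units, a call lost without any of 3 single arrays.

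Lists of membrane traffic and protein turnover had medians below the −0.07 of all genes, but the shares that fell were not all far from that of all genes. Tetraspanins, membrane proteins that organise protein assemblies in the plasma membrane, fell in 6 of 8 cases, with and without the block, with a median of −1.20. TET8 measured 2312, 1290.5 and 1488 in cop1-4, against 5471, 4079 and 3352 in wild type (log2 change −1.34, SE 0.18, limma adjusted p = 0.000935). TET7 measured 717, 917 and 1098 in cop1-4, against 2437, 2146 and 2331 in wild type (log2 change −1.33, SE 0.19, limma adjusted p = 0.00116). TET2, TET3, TET4 and TET5 fell, with log2 changes of −1.25, −0.81, −1.37 and −1.15. Autophagy genes fell in 6 of 10 cases, with a median of −0.63, and in 3 without the block. ATG3, which attaches ATG8 to lipid, measured 1218, 721 and 718 in cop1-4, against 2779, 1329.7 and 1731 in wild type (log2 change −1.09, SE 0.22, limma adjusted p = 0.00471), and APG8A and ATG8H, members of the ATG8 family, fell, with log2 changes of −0.92 and −0.93. BETA-VPE and DELTA-VPE, vacuolar proteases, fell, with log2 changes of −1.70 and −1.41, the other 2 of the family not being called.

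Vesicle traffic genes fell in 10 of 34 cases (29.4%, beside 23.4% of all genes) and none rose, with a median of −0.38. Without the block 3 fell, a smaller share than among all genes, and with a common median 7 fell. PRA8 and PRA1.F1, of a family that acts on Rab GTPases, fell, with log2 changes of −1.41 and −1.60. Of 40 genes of the ubiquitin system 14 fell and 4 rose, with a median of −0.36. Without the block 6 fell and 2 rose, a lowered share close to that of all genes. PUB19, a U-box E3 ligase, measured 8.9, 44.1 and 54 in cop1-4, against 525, 341 and 300.1 in wild type (log2 change −2.83, SE 0.36, limma adjusted p = 0.000745). The E2 enzymes UBC16 and UBC32 fell, with log2 changes of −0.91 and −1.08, and UBC37 rose by 1.06 log2 units. ETFBETA and ETFALPHA, which carry electrons from the breakdown of branched-chain amino acids, fell, with log2 changes of −1.37 and −0.65. The call of ETFALPHA was lost without any of 3 single arrays.

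Enzyme families held single strong changes. Of 38 UDP-glycosyltransferases 6 rose and 8 fell. UGT72B3 measured 216, 333 and 346 in cop1-4, against 77, 64.4 and 72.9 in wild type (log2 change 1.73, SE 0.22, limma adjusted p = 0.000831), whereas GT72B1, of the same subfamily, measured 224, 307 and 321 in cop1-4, against 945, 1639 and 1916 in wild type (log2 change −2.26, SE 0.19, limma adjusted p = 0.00018). UGT76E11 rose by 1.17 log2 units. UGT76E2 and UGT76B1 fell, with log2 changes of −2.09 and −1.77. Of 11 cytochromes P450 2 rose and 3 fell, with 1 and 2 without the block. CYP71B29 and CYP71B34 fell, with log2 changes of −1.64 and −0.98, against the rise of their relative CYP71B26. Among 11 beta-glucosidases 2 rose and 3 fell, BGLU16 falling by 1.63 log2 units in contrast to BGLU33. Serine carboxypeptidase-like genes fell in 7 of 15 cases and rose in 1, and in 4 and 1 without the block. scpl40 measured 11, 90.7 and 131 in cop1-4, against 452, 468 and 562 in wild type (log2 change −2.59, SE 0.35, limma adjusted p = 0.000948). scpl42 was the member that rose, by 0.97 log2 units. Of 8 subtilases, a family of secreted proteases, 3 fell. SBT4.12 measured 116, 331 and 256 in cop1-4, against 572, 6112 and 6999.6 in wild type (log2 change −3.61, SE 0.50, limma adjusted p = 0.0011), wild type replicate 1 being far below the other wild type arrays, and ATSBT5.2 fell by 3.12 log2 units.

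Transcription factors named by family fell in 13 of 35 cases and rose in 2, with a median of −0.25. With a common median 10 fell and 3 rose. LBD16, which acts in lateral root formation, measured 258, 94.8 and 91.7 in cop1-4, against 648, 328 and 362 in wild type (log2 change −1.52, SE 0.17, limma adjusted p = 0.000522). The bZIP factor BZIP61 fell by 1.28 log2 units. BZIP28, a stress sensor of the endoplasmic reticulum, fell by 0.95 log2 units. YAB5, a factor of the lower leaf side, rose, with 489.9, 274 and 378 in cop1-4, against 123, 101 and 123 in wild type (log2 change 1.50, SE 0.19, limma adjusted p = 0.000741), the 1 call among 5 leaf and organ regulators. FMA (FAMA), which completes guard cell formation, rose, with 199, 116 and 111 in cop1-4, against 95.1, 70.6 and 31.5 in wild type (log2 change 0.91, SE 0.22, limma adjusted p = 0.0114), and was not called without the block (adjusted p = 0.0644) nor without replicate 3 of wild type (adjusted p = 0.0571). SPCH, which starts the stomatal lineage, was not called at 0.34, and MUTE of the same lineage did not pass the filter on low signals. The signalling genes CML43, a calmodulin-like protein, and RALFL32, a peptide of the RALF family, fell, with log2 changes of −1.97 and −1.55.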

How the data were processed

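The intensity values, linear probe set signals of 9 one-colour Affymetrix arrays, were deposited by the authors in 1 table with MAS5 named per the submitters' processing notes. Its version and target signal were not given in the sources used here. Of 22746 probe sets, 13513 had 1 gene in the platform annotation, 503 several and 8730 none, and 13436 of the first matched the RefSeq table of TAIR10.1, used for names and gene order. Gene roles are background knowledge. A gene with several probe sets was represented by the brightest of them, and probe sets can also read close relatives.

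After addition of 24.5, the 20th percentile of the table, signals were taken to log2, and probe sets with a mean at or above the 30th percentile were kept, 15922 in all. They were fitted over all 9 arrays with limma 3.58.1 in R 4.3.3 (lmFit, eBayes with an intensity trend), with genotype and replicate number as terms, and tested two-sided with Benjamini-Hochberg adjustment at 0.05. The fit was tested on simulated data. Precision is limited by the number of arrays. The replicates are called biological in the labels, with no word on separate sowing, and p-values thus cover the spread between these samples alone. No pair of arrays held identical values.

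The block was used because deviations from the genotype means correlated between cop1-4 and wild type arrays of the same number (r = 0.375 to 0.478 over probe sets, and 0.375 to 0.806 over all 9 same-number pairs). Replicates 2 and 3 of different number also correlated, at 0.337 and 0.346 between cop1-4 and wild type. Between cop1-4 and cop1-4 BBX22-GFPox they did so at 0.699 and 0.739, against 0.719 and 0.641 for the same number. Between wild type and cop1-4 BBX22-GFPox the different numbers gave 0.436 and 0.452. A pairing of replicates 2 and 3 was thus not shown.

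Named genes were called with and without the block, had arrays that did not overlap, and were ranked by the smallest of their within-replicate differences: the 10 highest ranked in each direction, the 8 highest with a symbol, and up to 3 in each direction from every gene list, or the member of largest change. Other list members are given for their role and were chosen after their values were seen. The comparison, the lists and the rule were chosen with earlier results of these data known, and lists were trimmed of false name matches after the annotation was seen. Alternatives were the fit without the block, the 6 arrays alone, replicates 2 and 3 alone, a batch term, array weights, other offsets and filters, quantile and median scaling, no trend, and leaving out arrays or replicate numbers. Promoter motifs were not searched.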

Additional observations from a re-analysis of the deposited data

How the results depend on the processing

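The 7096 calls (3173 raised, 3923 lowered) depended most on the replicate block and on replicates 2 and 3. With no replicate block 4100 probe sets were called (1795 raised, 2305 lowered), and with the 6 arrays of both genotypes and no replicate block 3578 (1598 raised, 1980 lowered). Leaving out one array gave 4595 calls, without replicate 2 of cop1-4, to 8515 calls, without replicate 1 of wild type. Without replicate 2 of cop1-4, 2433 probe sets were lowered. Leaving out one replicate number in every genotype gave 9808 calls without replicate 1 (4532 raised, 5276 lowered), 2792 without replicate 2 (1315 raised, 1477 lowered) and 3292 without replicate 3 (1474 raised, 1818 lowered). Fewer arrays leave fewer residual degrees of freedom, and without replicate 1 the remaining arrays were more alike. The other alternatives kept each of these counts within 1.5 times, from 5070 calls with the 6 arrays and the block to 10108 with array weights. In every alternative, 0 of the calls shared with the main analysis changed sign. The log2 change is the same by design with and without the block, and the other alternatives share arrays with the main analysis. This count could thus hardly be otherwise and is no check of the directions. Of the 151 genes named by rule, 3 lost their call with no replicate block (HPR, ICL and FMA), 31 without replicate 2 and 27 without replicate 3. RR16, not called, turned to a log2 change of −0.079 in replicates 2 and 3 alone and without replicate 1 (adjusted p = 0.758 and 0.773), against 1.02 without replicate 3. Signals near or under the added 24.5 give understated changes, and a scanner background was not used here.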

Other observations

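Some of the largest changes fell in stretches of neighbouring genes on a chromosome. These stretches were picked after their values were seen, from overlapping windows of 10 tested genes in chromosome order of TAIR10.1, and they carry no test. Where windows of the same stretch overlapped, 1 of them is given. The counts are from the fit with the block, and without it fewer genes were called in every window given except that of chromosome 5. On chromosome 1, between AT1G58070 and AT1G59520, 8 of 10 tested genes fell and none rose, with a median log2 change of −1.12. ZW9, described above, lies among them at −5.77, and AT1G58150 changed by −2.76. CF9 was not called, at −0.38, and CW7 fell by 0.72 log2 units, a call lost without the block (limma adjusted p = 0.107). On chromosome 5, between AT5G44380 and AT5G44580, 7 of 10 fell and 1 rose, with a median of −1.22. AT5G44440 (−6.17), AT5G44520 (−2.44) and CML43 (−1.97) lie in that stretch, and AT5G44500 is the gene that rose, by 1.20 log2 units.

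Other windows held mostly genes that rose. On chromosome 2, between AT2G37190 and AT2G37510, 8 of 10 tested genes rose and 1 fell, with a median of 1.29. AT2G37240 rose by 2.32 log2 units, and AT2G37480 is the gene that fell, by 1.04 log2 units, a call lost without the block (limma adjusted p = 0.0983). Also on chromosome 2, between AT2G29180 and AT2G29360, 7 of 10 rose and none fell, with a median of 1.81. AT2G29360, AT2G29320 and AT2G29340 rose by 3.94, 3.13 and 2.41 log2 units. AT2G29290 measured 4168, 493 and 507 in cop1-4, against 171, 392 and 448 in wild type, so that its difference lay in replicate 1, and TRI was not called at 0.26. On chromosome 4, between AT4G15545 and AT4G15790, 7 of 10 rose and none fell, with a median of 1.79. IAGLU in that window was not called, at −0.90. AT4G15680, AT4G15700 and AT4G15690 were under the added 24.5 on some wild type arrays and rose by 2.86, 2.34 and 2.32 log2 units. The call of AT4G15690 was lost without the block (limma adjusted p = 0.0654), and its arrays overlapped between the genotypes. Neighbours of like sequence can share probe signal, which was not tested. Over whole chromosomes the shares that rose lay between 19.7% and 21.6% and the shares that fell between 21.8% and 26.6% for the 5 nuclear chromosomes.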
